A study of Drosophila melanogaster with 10 samples.

Results

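The genes described are the nuclear genes for subunits of respiratory complex I that carry a FlyBase symbol beginning with ND-. Of 40 such genes in the count table, 39 reached 10 counts summed over the 10 libraries and were kept, out of 15259 genes in all. The gene left out, ND-B14.5AL, had 4 counts. The 39 comprise 34 subunit genes and 5 genes with an L suffix, ND-20L, ND-24L, ND-49L, ND-51L1 and ND-51L2, which are paralogs of ND-20, ND-24, ND-49 and ND-51. They lie on all chromosome arms, with 9 on X, 9 on 2L, 8 on 2R, 8 on 3L, 4 on 3R and 1 on chromosome 4. Their transcripts are between 384 and 2571 bases long.

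Complex I (NADH:ubiquinone oxidoreductase) is the entry point of electrons from NADH into the respiratory chain of the mitochondrial inner membrane. Its N module oxidises NADH, its Q module passes the electrons through iron-sulphur clusters to ubiquinone, and its membrane arm pumps protons. The catalytic core of the peripheral arm is built from 7 nuclear-encoded subunits, the core of the membrane arm is encoded in the mitochondrial genome, and the remaining subunits are called accessory. Insect flight muscle is packed with mitochondria and depends on oxidative ATP supply. By module, 7 of the 34 subunit genes were placed in the N module, 8 in the Q module, 7 in the proximal and 11 in the distal membrane arm. ND-MLRQ was kept apart, since its human counterpart NDUFA4 has been reassigned to complex IV.

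RNA was sequenced from Drosophila melanogaster kept at 25 °C, and every animal carried UAS-Dicer2 and the driver Mef2-Gal4, which acts in the muscle lineage. Animals labelled Rbf-KD also carried an Rbf hairpin (UAS-Rbf-RNAi, GD:10696), and those labelled WT an mCherry hairpin inserted at attP2, so hairpin and insertion differ together. Flight muscle came from pharate animals, some 96 h past puparium formation (2 libraries per genotype). The notum part of the wing disc was taken from wandering larvae of the last instar (3 libraries per genotype). The notum pieces hold adult muscle precursors together with disc epithelium, in which the driver does not act. The labels do not say that libraries came from separate cultures or batches of animals, so p-values measure the spread between libraries, which may be technical. In whole tissue, fewer cells of a type and less RNA per cell cannot be told apart.

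Gene counts summed to between 53864590 and 73408335 per flight muscle library and between 42097050 and 55401980 per notum library. Counts assigned to Rbf went against the label in flight muscle. They were at 14.4 ± 0.720 CPM (counts scaled to a common effective library size) in libraries labelled Rbf-KD and 5.16 ± 0.656 CPM in WT (SD, n = 2 each, log2 fold change 1.48, edgeR adjusted p = 0.00229). In notum Rbf was not called (log2 fold change -0.25). Whether reads of the Rbf hairpin were counted as Rbf was not tested. Whether the labels match the libraries was not tested either. Libraries are therefore named by their labels, and each direction below is that of the labelled groups. The 2 notum replicate 1 libraries stood apart from the other 4 on the first principal component. The tissue labels fitted the flight muscle markers: the 7 found summed to between 165000 and 595800 CPM in flight muscle and between 194 and 324 CPM in notum. Disc epithelium markers summed to between 315 and 438 CPM in flight muscle and between 894 and 1173 CPM in notum. Sums of the adult muscle precursor markers overlapped, at 226 to 304 CPM in flight muscle and 183 to 297 CPM in notum. These sums were scaled over all 10 libraries. On that scale 3 of the 6 precursor markers were called lower in WT flight muscle than in WT notum, and 2 higher. With library totals 6 of 6 were called lower, in WT and in libraries labelled Rbf-KD. The marker twi had 0 to 2 counts per WT flight muscle library and 712 to 1519 per WT notum library.

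In 10 members, 5% or more of the transcript overlaps exons of another gene: ND-15, ND-18, ND-51, ND-ASHI, ND-B14, ND-B22, ND-B8, ND-MNLL, ND-MWFE and ND-SGDH. Whether reads were assigned by strand was not given in the sources used here, so the counts of these genes are uncertain. The overlap is complete for ND-MNLL (CG45089, same strand) and reaches 43.5% for ND-MWFE (TppII, opposite strand).

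**Figure D1:**
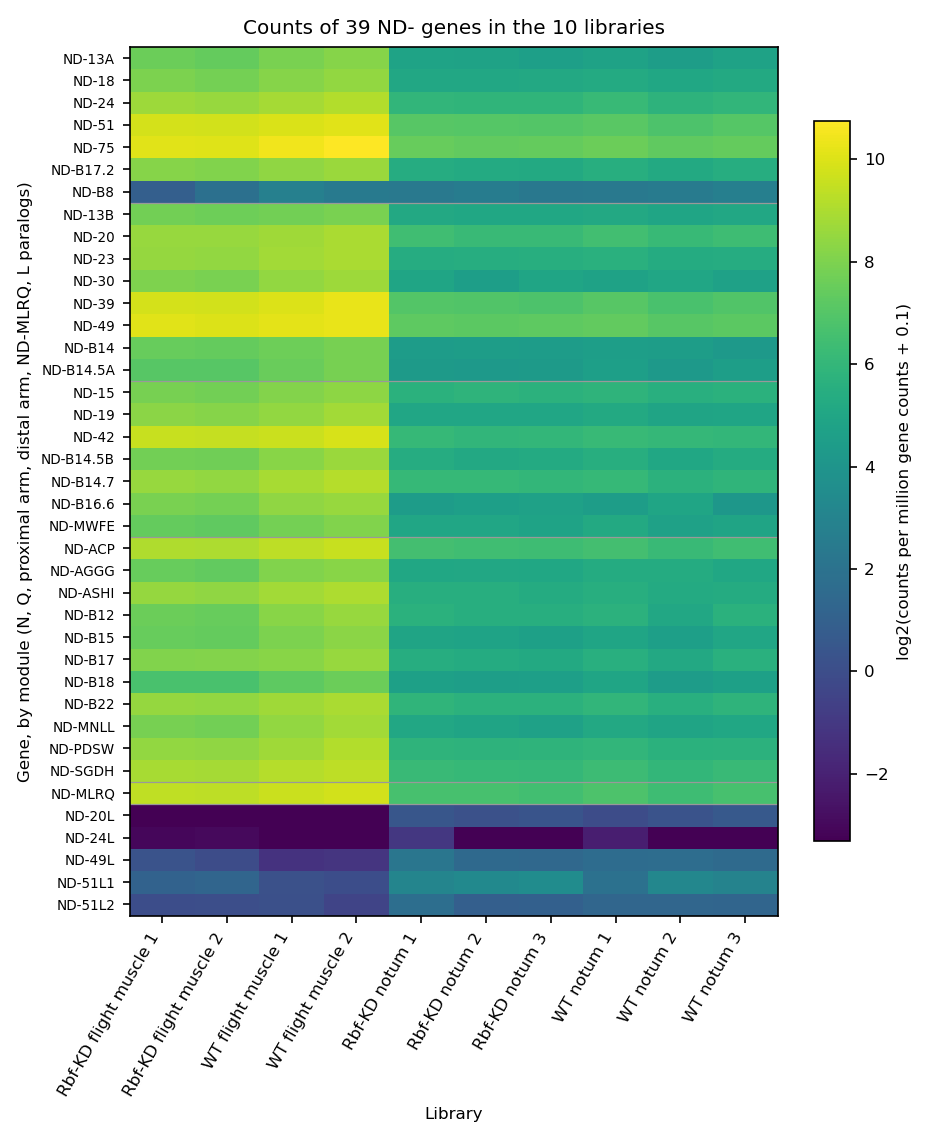
Level of each of the 39 genes (rows, by module) in each of the 10 libraries (columns), as log2 of library-total CPM plus 0.1. Apart from ND-B8 the 34 subunit genes are brighter in all 4 flight muscle libraries than in all 6 notum libraries, and each L paralog is darker than its parent gene in every library.

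The first comparison was between flight muscle labelled Rbf-KD and flight muscle labelled WT. All 34 subunit genes were lower in flight muscle labelled Rbf-KD, and none of the 39 members was higher by the test. The fold changes of the 34 lay in a narrow band, with a median log2 fold change of -1.55 (2.93-fold lower) and a range of -2.29 for ND-B8 to -1.26 for ND-13B, while the median of all genes was 0.10. In none of the 34 did the 2 libraries labelled Rbf-KD overlap the 2 WT libraries, but the share of all genes without overlap was not counted. Of 37 members tested, 34 were called lower and 0 higher (edgeR quasi-likelihood test, Benjamini-Hochberg adjusted p between 0.00106 and 0.0111 for the 34). Of the 10930 genes tested, 20.3% were called lower and 19.4% higher. ND-20L and ND-24L did not pass the filter on low counts.

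The genes of the 3 core subunits of the N module fell together. ND-75, the large iron-sulphur subunit (NDUFS1 in human), had 739.6 and 756 CPM in flight muscle labelled Rbf-KD and 2043 and 2575 CPM in WT (log2 fold change -1.63, SE 0.16, edgeR adjusted p = 0.00157). ND-51, which binds FMN and NADH, had 606.5 and 611 CPM in libraries labelled Rbf-KD and 1400 and 1673 CPM in WT (-1.34, SE 0.14, adjusted p = 0.00195). ND-24, which holds an iron-sulphur cluster beside it, had 269.5 and 269.3 CPM in libraries labelled Rbf-KD and 669 and 829.8 CPM in WT (-1.48, SE 0.15, adjusted p = 0.00188). In each of the 3 genes both WT libraries were above both libraries labelled Rbf-KD, and the WT pair was the wider one.

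The same held for the core of the Q module. ND-49, which lines the ubiquinone site, had 724 and 707 CPM in flight muscle labelled Rbf-KD and 1648 and 1886 CPM in WT (log2 fold change -1.30, SE 0.13, edgeR adjusted p = 0.00172). ND-30, the NDUFS3 subunit, had 173 and 171 CPM in libraries labelled Rbf-KD and 505 and 626.5 CPM in WT (-1.72, SE 0.16, adjusted p = 0.0014). Of the 7 core genes ND-30 had the lowest fold change and ND-49 the one nearest to 0. ND-20, which carries the last iron-sulphur cluster before ubiquinone, had 257 and 267 CPM in libraries labelled Rbf-KD and 625 and 749 CPM in WT (-1.39, SE 0.15, adjusted p = 0.0019). ND-23, a ferredoxin-like subunit, had 248.0 and 248.5 CPM in libraries labelled Rbf-KD and 629 and 738 CPM in WT (-1.46, SE 0.14, adjusted p = 0.00155). No group overlapped in these 4 genes.

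Accessory subunit genes moved by a similar amount. The 27 had a median log2 fold change of -1.58 and the 7 core genes one of -1.46. By module the medians were -1.55 in N (7 of 7 lower), -1.44 in Q (8 of 8), -1.63 in the proximal arm (7 of 7) and -1.62 in the distal arm (11 of 11). ND-MLRQ, the most abundant per length, was at -1.45. The lowest values were those of 3 small accessory subunits. ND-B12, the NDUFB3 subunit of the distal arm, had 125 and 124.5 CPM in libraries labelled Rbf-KD and 442 and 575 CPM in WT (-2.03, SE 0.17, edgeR adjusted p = 0.00122). ND-MNLL, of the same arm, had 154 and 151 CPM in libraries labelled Rbf-KD and 516 and 653 CPM in WT (-1.94, SE 0.16, adjusted p = 0.00121), and its counts may include reads of the gene that overlaps it. ND-B8, an N module subunit with a thioredoxin-like fold, had 97 and 261 counts in libraries labelled Rbf-KD and 399 and 289 in WT. On the CPM scale that was 1.19 and 2.49 CPM in libraries labelled Rbf-KD and 10.03 and 8.01 CPM in WT (-2.29, SE 0.40, adjusted p = 0.0111), and the call was lost without WT replicate 1 (-2.13, adjusted p = 0.0657). Over the 34 subunit genes shorter transcripts had the lower fold changes (Spearman rho of length and fold change 0.43, a description across genes that share the same 4 libraries), whereas rho was -0.005 over all 10930 genes.

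**Figure D2:**
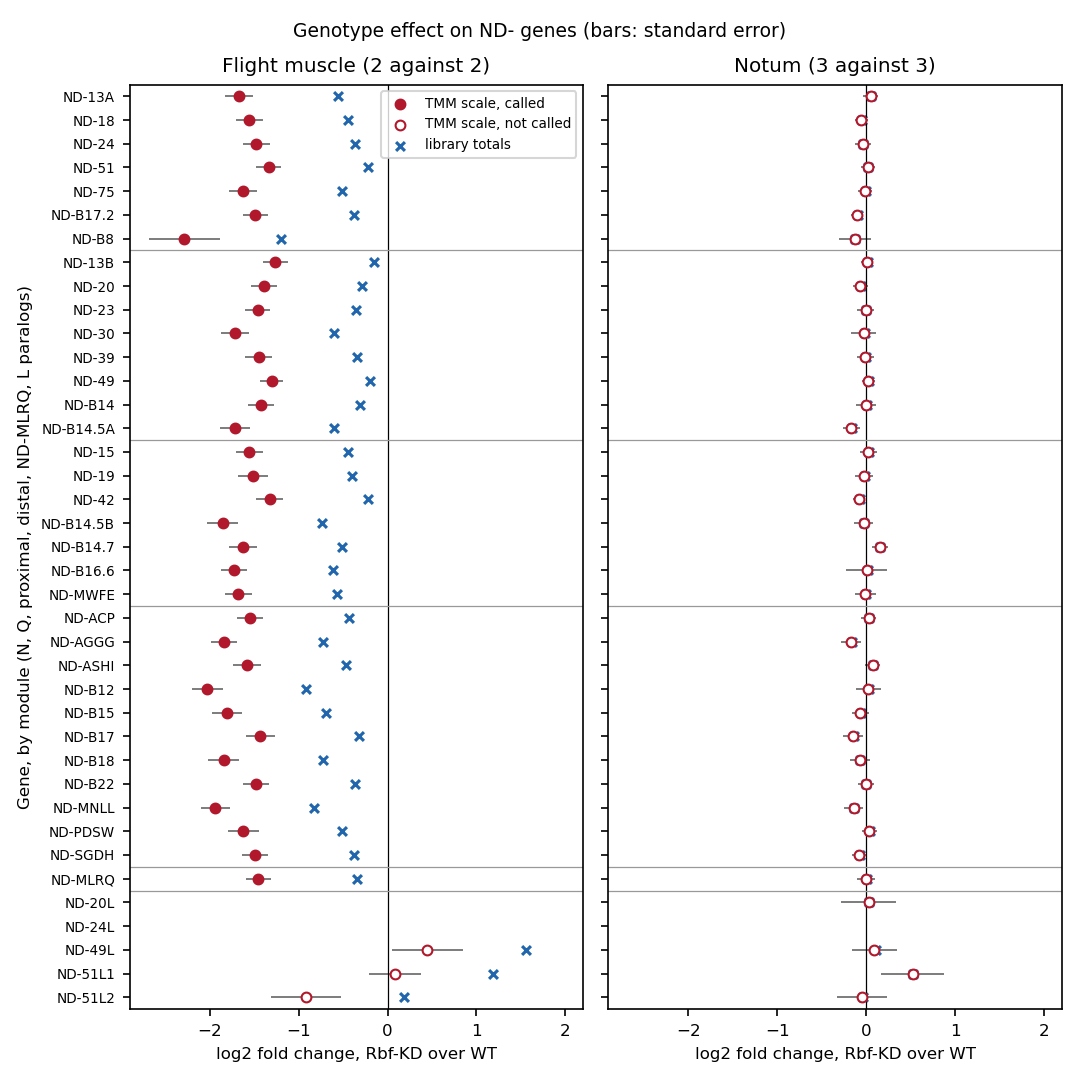
Log2 fold change of Rbf-KD over WT for each tested member in flight muscle (left) and notum (right), with standard errors, on the TMM scale (filled, called at an adjusted p under 0.05; open, not called) and with library totals (crosses). In flight muscle the 34 subunit genes lie between -2.29 and -1.26 on the TMM scale and are nearer to 0 with library totals, and in notum the subunit genes lie around 0.

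How large the decrease was depended on the scaling. The values above are relative to the typical gene, through TMM factors. With library totals the median of all genes moved to 1.20, the 34 subunit genes stayed below 0 with a median of -0.44 (range -1.20 to -0.15), and 26 of them were called lower. Of all genes, 5.07% were called lower and 68.2% higher on that scale. The share of all gene counts held by the 39 genes needs no TMM factor, but it is itself a value relative to the library total. It was 1.30% and 1.24% in flight muscle labelled Rbf-KD and 1.55% and 1.82% in WT, with Wilson 95% intervals of at most 0.00357 percentage points to each side, which cover counting error only. The groups did not overlap. Genes of the mitochondrial genome differed in the same libraries, with 16.1% and 16.8% of gene counts in flight muscle labelled Rbf-KD and 22.4% and 20.2% in WT, and their part in the share was not tested. With them left out of the total the share was 1.51 ± 0.0431% in flight muscle labelled Rbf-KD and 2.14 ± 0.205% in WT (SD, n = 2 each).

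Markers of other cells differed in the same libraries. Of 7 fat body markers tested 7 were higher in flight muscle labelled Rbf-KD, summing to between 2947 and 3184 CPM there and between 256 and 297 CPM in WT. Yp1, the fat body marker not tested, had at most 5 counts per flight muscle library. Of 5 hemocyte markers 3 were higher (776 to 823 CPM summed in libraries labelled Rbf-KD and 422 to 487 CPM in WT). Of 5 tracheal markers 3 were lower (69.9 to 72.1 CPM in libraries labelled Rbf-KD and 163 to 183 CPM in WT), although with library totals 3 of the 5 lay above 0. Flight muscle markers fell with the complex I genes, 6 of 7 being lower (median -1.51 on the log2 scale). They summed to between 65080 and 65370 CPM in libraries labelled Rbf-KD and between 220500 and 246900 CPM in WT. With library totals 5 of the 7 stayed lower, while sls and salm were higher. Per 100 counts of these 7 markers the 39 complex I genes had 13.2 and 13.2 counts in libraries labelled Rbf-KD and 10.1 and 11.1 in WT. This ratio leans on Mhc, the marker with the most counts. Mhc held 1887851 and 2478127 of the 5290249 and 6855180 marker counts in libraries labelled Rbf-KD. In WT it held 4758146 and 4831506 of 8774095 and 8907417. The ratio without Mhc was not computed, so its direction is not a result about complex I genes. Of the other marker lists, 1 of 5 disc epithelium markers was lower, 2 of 5 muscle precursor markers were higher and 2 lower, and neither the 3 neuron markers nor the 1 testis marker tested was called. With library totals, where most genes were called higher, 7 of 7 fat body, 5 of 5 hemocyte, 3 of 5 disc epithelium, 4 of 5 muscle precursor, 3 of 3 neuron markers and the testis marker were called higher, and none of these was lower. The part of other cell types in the complex I values was not tested.

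**Figure D3:**
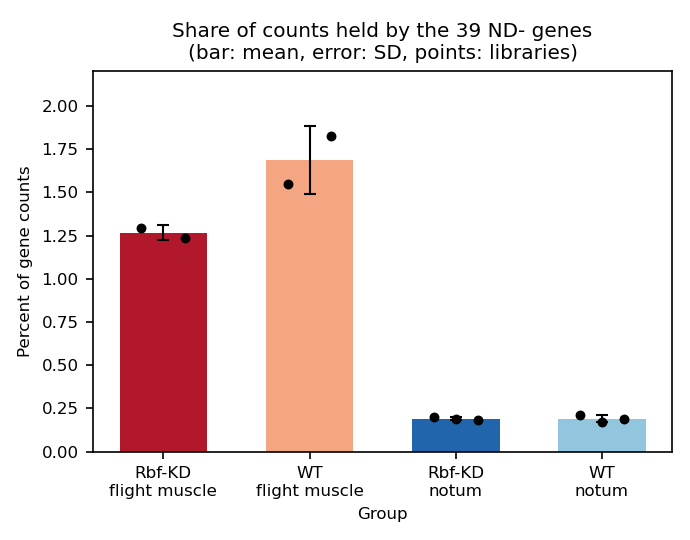
Percent of all gene counts held by the 39 genes in each library (points), with the mean (bar) and SD (error bar) of each group. Both flight muscle libraries labelled Rbf-KD lie below both WT libraries, and the notum groups overlap near 0.19%.

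None of the 3 tested L paralogs was called. ND-49L had 59 and 64 counts in flight muscle labelled Rbf-KD and 18 and 19 in WT, or 0.726 and 0.610 CPM in libraries labelled Rbf-KD and 0.452 and 0.527 CPM in WT (log2 fold change 0.45, SE 0.40, edgeR adjusted p = 0.413). ND-51L1 had 111 and 169 counts in libraries labelled Rbf-KD and 58 and 49 in WT, or 1.365 and 1.61 CPM in libraries labelled Rbf-KD and 1.46 and 1.36 CPM in WT (0.08, SE 0.29, adjusted p = 0.843). ND-51L2 had 48 and 70 counts in libraries labelled Rbf-KD and 57 and 34 in WT, or 0.5905 and 0.6675 CPM in libraries labelled Rbf-KD and 1.43 and 0.943 CPM in WT (-0.92, SE 0.39, adjusted p = 0.116). The groups overlapped for ND-51L1 and not for the other 2 genes. With library totals ND-49L (1.56, adjusted p = 0.0182) and ND-51L1 (1.18, adjusted p = 0.0164) were called higher.

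Relative to the family as a whole, few members stood out in flight muscle. When libraries were scaled to equal sums of the 39 genes, 2 members were higher in flight muscle labelled Rbf-KD, ND-49L (log2 fold change 1.96) and ND-51L1 (1.59), and 2 were lower, ND-B12 (-0.50, SE 0.12, edgeR adjusted p = 0.0146) and ND-MNLL (-0.41, SE 0.11, adjusted p = 0.0235). Of all genes, 79.7% were called higher and 2.29% lower on this scale. This scaling was chosen after the data were seen.

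In notum, the larval stage of the design, none of the 38 members tested was called, in either direction, and none had an unadjusted edgeR p under 0.05. DESeq2 and limma-voom also called 0 members. Over all genes 0.0738% were called higher and 0.0819% lower, that is 9 and 10 genes. With the replicate number as a block, 38 genes were called higher and 41 lower, still 0 of them members, and 1 member, ND-51L1, had an unadjusted p under 0.05 (log2 fold change 0.60, adjusted p = 0.477). The 34 subunit genes had a median log2 fold change of -0.01, as did all genes, and a range of -0.17 (ND-AGGG) to 0.15 (ND-B14.7), with a median standard error of 0.09. The groups overlapped for every member tested.

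The core genes show how close the notum groups were. ND-75 had 174, 170.2 and 173 CPM in notum labelled Rbf-KD and 188, 163 and 171 CPM in WT. ND-51 had 129, 132 and 128 CPM in notum labelled Rbf-KD and 138, 118 and 129 CPM in WT. ND-24 had 59.5, 61.4 and 60.2 CPM in notum labelled Rbf-KD and 69.7, 57.5 and 58.8 CPM in WT. In these 3 genes of the N module the WT libraries lay on both sides of those labelled Rbf-KD. In the Q module, ND-49 had 149, 153 and 152 CPM in notum labelled Rbf-KD and 161, 140.5 and 146 CPM in WT. ND-20 had 81.5, 75.3 and 74.6 CPM in notum labelled Rbf-KD and 87.9, 74.0 and 80.8 CPM in WT. ND-23 had 40.8, 45.3 and 45.6 CPM in notum labelled Rbf-KD and 49.0, 41.8 and 41.5 CPM in WT. The groups overlapped here too. ND-30 varied more between libraries of a group, with 29.4, 24.1 and 31.7 CPM in notum labelled Rbf-KD and 27.4, 33.8 and 25.9 CPM in WT.

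The 6 outermost fold changes in notum belonged to 2 paralogs and 4 accessory genes. The highest was that of the paralog ND-51L1, with 7.87, 10.2 and 11.7 CPM in notum labelled Rbf-KD and 3.62, 9.51 and 7.71 CPM in WT (log2 fold change 0.52, SE 0.35, edgeR adjusted p = 0.9998). WT replicate 1 was the low library. ND-B14.7, a proximal arm subunit, had 64.7, 71.2 and 64.5 CPM in notum labelled Rbf-KD and 66.6, 55.4 and 58.0 CPM in WT (0.15, SE 0.09). ND-49L had 4.26, 2.75 and 2.59 CPM in notum labelled Rbf-KD and 2.98, 3.27 and 2.78 CPM in WT (0.09, SE 0.25), and its sign turned without Rbf-KD replicate 1 (-0.13). At the low end, ND-AGGG of the distal arm had 31.6, 35.1 and 34.1 CPM in notum labelled Rbf-KD and 39.5, 41.8 and 32.3 CPM in WT (-0.17, SE 0.11). ND-B14.5A of the Q module had 19.7, 19.0 and 20.8 CPM in notum labelled Rbf-KD and 24.1, 19.8 and 22.8 CPM in WT (-0.17, SE 0.10). ND-B17 of the distal arm had 41.0, 41.7 and 37.7 CPM in notum labelled Rbf-KD and 47.1, 37.7 and 48.5 CPM in WT (-0.15, SE 0.11). In each of these 6 genes the groups overlapped, and none was called. The paralog ND-51L2 had 3.16, 1.86 and 1.90 CPM in notum labelled Rbf-KD and 2.37, 2.55 and 2.25 CPM in WT (-0.05, SE 0.28). Of the subunit genes ND-B16.6, the NDUFA13 subunit, spread the most in notum, by 1.92-fold between the highest and the lowest of the 6 libraries, against 1.12-fold for ND-13B.

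The decrease in flight muscle was tested against notum directly. The genotype effect was lower in flight muscle for 34 of 38 members, which were the 34 subunit genes, and higher for 0 (edgeR, fit of all 10 libraries), at a median difference of -1.53 over the 34. Of all genes 13.1% differed in that direction and 17.23% in the other. With library totals 15 members were lower and 1 higher, beside 2.72% and 52.1% of all genes. Scaled to the family sum, 1 member was lower (ND-B12, -0.54) and 1 higher (ND-49L, 1.86), beside 1.15% and 61.8% of all genes. The difference in counts assigned to Rbf ran the opposite way between the tissues (1.76).

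The second axis of the design is the tissue and stage. All 34 subunit genes were higher in WT flight muscle than in WT notum, by a median log2 fold change of 5.89 (59.4-fold), while the median of all genes was -0.50. With the paralog ND-51L2, 35 of 38 members were called higher, and 1, ND-20L, lower. Of the 13407 genes tested, 33.3% were called higher and 43.4% lower. With library totals 33 members were higher and 4 lower, at a subunit median of 3.14 and a median of all genes of -3.24, beside 10.9% and 76.3% of all genes. The members held 1.69 ± 0.195% of gene counts in WT flight muscle (SD, n = 2) and 0.192 ± 0.0190% in WT notum (n = 3). Tissue and developmental stage differ together and cannot be told apart.

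The 7 core genes were all called higher (edgeR adjusted p between 1.17e-09 and 4.86e-09). ND-75 had 5127 and 6212 CPM in WT flight muscle and 97.5, 88.2 and 93.0 CPM in WT notum (log2 fold change 5.93, SE 0.12), with CPM here scaled over all 10 libraries. ND-51 had 3513 and 4036 CPM in WT flight muscle and 71.4, 63.9 and 70.04 CPM in WT notum (5.79, SE 0.11). ND-24 had 1679 and 2002 CPM in WT flight muscle and 36.1, 31.2 and 32.0 CPM in WT notum (5.80, SE 0.12). In these 3 genes the flight muscle libraries lay far above those of notum, with no overlap. ND-49 had 4134 and 4550 CPM in WT flight muscle and 83.4, 76.2 and 79.5 CPM in WT notum (5.77, SE 0.10). ND-30 had 1268 and 1511 CPM in WT flight muscle and 14.2, 18.3 and 14.1 CPM in WT notum (6.48, SE 0.19). ND-23 had 1579 and 1780 CPM in WT flight muscle and 25.4, 22.7 and 22.6 CPM in WT notum (6.16, SE 0.12). ND-20 had the smallest fold change of the 7, with 1568 and 1807 CPM in WT flight muscle and 45.6, 40.1 and 44.0 CPM in WT notum (5.29, SE 0.11).

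The accessory genes ND-B16.6 and ND-42 stood beside ND-30 at the top. ND-B16.6 had 1208 and 1377 CPM in WT flight muscle and 11.8, 17.7 and 9.25 CPM in WT notum (log2 fold change 6.65, SE 0.28). ND-42, the NDUFA10 subunit with a nucleoside kinase fold, had 2862 and 3377 CPM in WT flight muscle and 36.5, 37.2 and 34.4 CPM in WT notum (6.44, SE 0.11). ND-B8 was the subunit gene with the smallest rise, at 25.2 and 19.3 CPM in WT flight muscle and 2.57, 3.25 and 3.50 CPM in WT notum (2.84, SE 0.31, edgeR adjusted p = 2.84e-05), and it was at 0.09 with library totals. Groups did not overlap for any subunit gene, but the share of all genes without overlap was not counted here either.

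Because nearly all members rose together, the differences among them were tested with the family sum held equal, a scaling chosen after the data were seen. On that scale 8 subunit genes were higher in WT flight muscle: ND-B16.6 (log2 fold change 0.74, SE 0.25), ND-30 (0.58, SE 0.17), ND-42 (0.54, SE 0.09), ND-19 (0.46), ND-MNLL (0.45), ND-ASHI (0.42), ND-23 (0.27) and ND-13A (0.23). Another 5 subunit genes were lower: ND-B8 (-3.03, SE 0.38), ND-20 (-0.60, SE 0.08), ND-15 (-0.59, SE 0.09), ND-B18 (-0.38, SE 0.09) and ND-13B (-0.37, SE 0.08). The 4 tested paralogs were lower as well, giving 9 members in all. Of all genes, 2.64% were higher and 90.8% lower than the family sum. ND-15, ND-MNLL, ND-ASHI and ND-B8 are among the genes with overlapping exons.

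**Figure D4:**
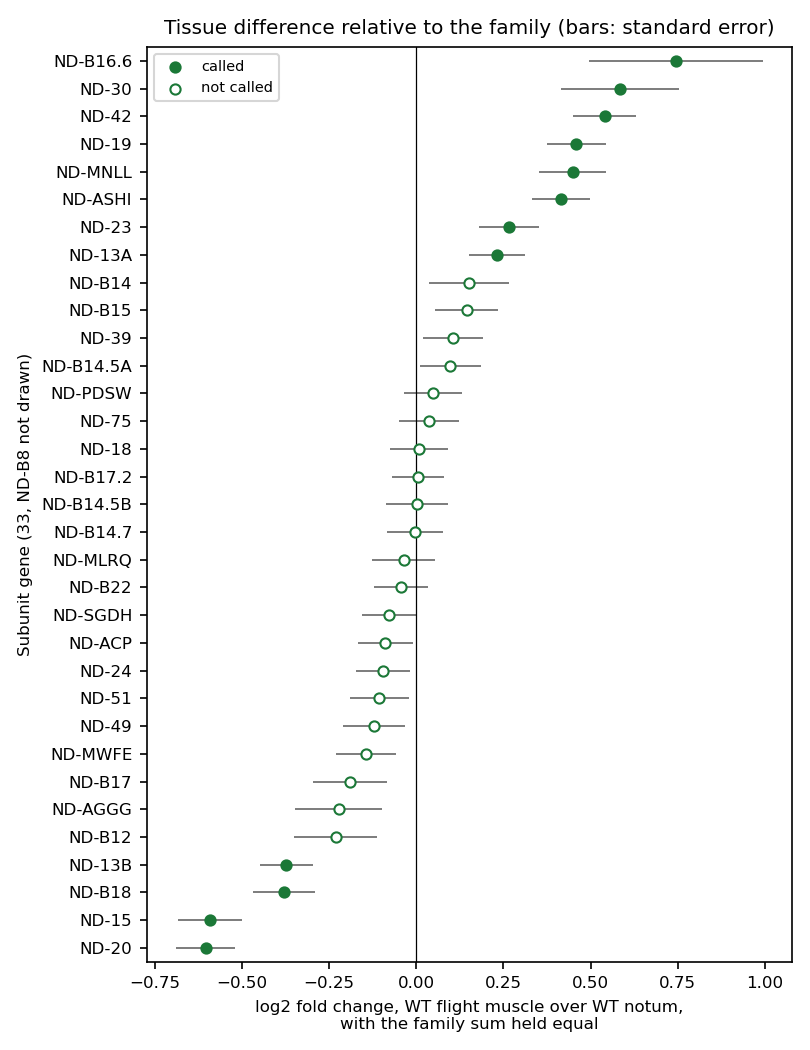
Log2 fold change of WT flight muscle over WT notum, with standard errors, for 33 subunit genes after libraries were scaled to an equal sum of the 39 genes. Filled points were called at an adjusted p under 0.05: the 8 at the top run from 0.23 to 0.74 and the 4 at the bottom from -0.60 to -0.37 (ND-B8, at -3.03, is not drawn).

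The paralogs were low in both tissues. ND-20L had no count in any of the 4 flight muscle libraries, and 57, 52 and 56 counts in notum labelled Rbf-KD and 48, 47 and 62 in WT notum. A limit of 3 counts per library was used, about the upper 95% limit for a count of 0. On the TMM scale the mean of WT notum was 3.02-fold above the highest such limit of WT flight muscle. For libraries labelled Rbf-KD the mean of notum was 6.71-fold above that of flight muscle. The spread between notum libraries was not allowed for. ND-20L passed the rule for members and the filter on low counts through its notum counts alone, so its call as lower is no independent result. ND-49L had 1.135 and 1.27 CPM in WT flight muscle and 1.54, 1.77 and 1.51 CPM in WT notum (log2 fold change -0.42, SE 0.30, edgeR adjusted p = 0.233). ND-51L1 had 3.66 and 3.28 CPM in WT flight muscle and 1.88, 5.16 and 4.19 CPM in WT notum (-0.11, SE 0.40, adjusted p = 0.814). Neither of these 2 was called, and the groups of ND-51L1 overlapped. ND-51L2 had 3.595 and 2.27 CPM in WT flight muscle and 1.23, 1.38 and 1.23 CPM in WT notum (1.20, SE 0.32, adjusted p = 0.00812), but it was lower with library totals (-1.55, adjusted p = 0.00392) and not called without WT flight muscle replicate 1 (0.79, adjusted p = 0.0963).

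Per kilobase of transcript, each paralog was a small fraction of its parent. The fraction was smaller in flight muscle for ND-20L, ND-49L, ND-51L1 and ND-51L2, while the median of ND-24L was 0 in both notum groups. The median of ND-51L1 was 0.181% of ND-51 in flight muscle labelled Rbf-KD, 0.0687% in WT flight muscle, 5.73% in notum labelled Rbf-KD and 4.44% in WT notum. ND-49L was at 0.0869% of ND-49 in flight muscle labelled Rbf-KD and 0.0258% in WT flight muscle, beside 1.68% in notum labelled Rbf-KD and 1.78% in WT notum. ND-24L, a paralog of ND-24, was too low to test. It had 17 counts in notum labelled Rbf-KD replicate 1, 7 in WT notum replicate 1, 1 and 2 in flight muscle labelled Rbf-KD, and 0 elsewhere.

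Libraries labelled Rbf-KD showed the tissue difference too, at a smaller size. In flight muscle labelled Rbf-KD against notum labelled Rbf-KD, 33 of 38 members were higher and 1, ND-20L, lower (edgeR), beside 34.9% and 39.2% of all genes. The subunit median was 4.43 (21.5-fold). ND-42 was highest, at 1267 and 1332 CPM in flight muscle labelled Rbf-KD and 34.7, 34.2 and 35.7 CPM in notum labelled Rbf-KD (log2 fold change 5.22, SE 0.11). The subunit gene that was not called was ND-B8, with 3.03 and 6.46 CPM in flight muscle labelled Rbf-KD and 2.62, 3.39 and 2.70 CPM in notum labelled Rbf-KD (0.71, SE 0.30, adjusted p = 0.0605), and its groups overlapped. With library totals 33 members were higher and 5 lower, beside 16.1% and 68.5% of all genes. Scaled to the family sum, 5 were higher and 13 lower, beside 4.09% and 87% of all genes.

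Within a library the subunit genes kept a similar order of level per length. ND-MLRQ was the highest in all 10 libraries and ND-ACP, the mitochondrial acyl carrier protein, was second in the WT group means of both tissues. ND-49 followed in both. At the other end, ND-B8 was the lowest subunit gene in all 10 libraries. It lay 97.7-fold and 48.6-fold below the median subunit gene in flight muscle labelled Rbf-KD, 33.2-fold and 50.7-fold in WT flight muscle, 5.33-fold, 4.38-fold and 5.24-fold in notum labelled Rbf-KD, and 6.03-fold, 4.16-fold and 4.08-fold in WT notum. Next lowest in all 4 flight muscle libraries was ND-B18, a distal arm subunit, so that apart from ND-B8 the highest gene was between 4.83-fold and 6.68-fold above the lowest there.

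Leaving out ND-B8, the SD of log2 levels per kilobase among the other 33 subunit genes was between 0.543 and 0.549 in flight muscle labelled Rbf-KD, between 0.475 and 0.484 in WT flight muscle, between 0.567 and 0.621 in notum labelled Rbf-KD, and between 0.504 and 0.651 in WT notum. Levels were close between genotypes, with Pearson's r of 0.94 in flight muscle and 0.99 in notum across these 33 genes. They were less so between tissues (0.84 in WT and 0.82 in libraries labelled Rbf-KD). For the order of the genes, Spearman rho between genotypes was 0.896 in flight muscle and 0.989 in notum. Between tissues it was 0.813 in WT and 0.774 in libraries labelled Rbf-KD. These are descriptions across genes, which share libraries and transcript lengths and are not replicates. ND-20 showed the largest step down in rank among the core genes, being 19th of 34 in WT flight muscle and 4th in WT notum.

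**Figure D5:**
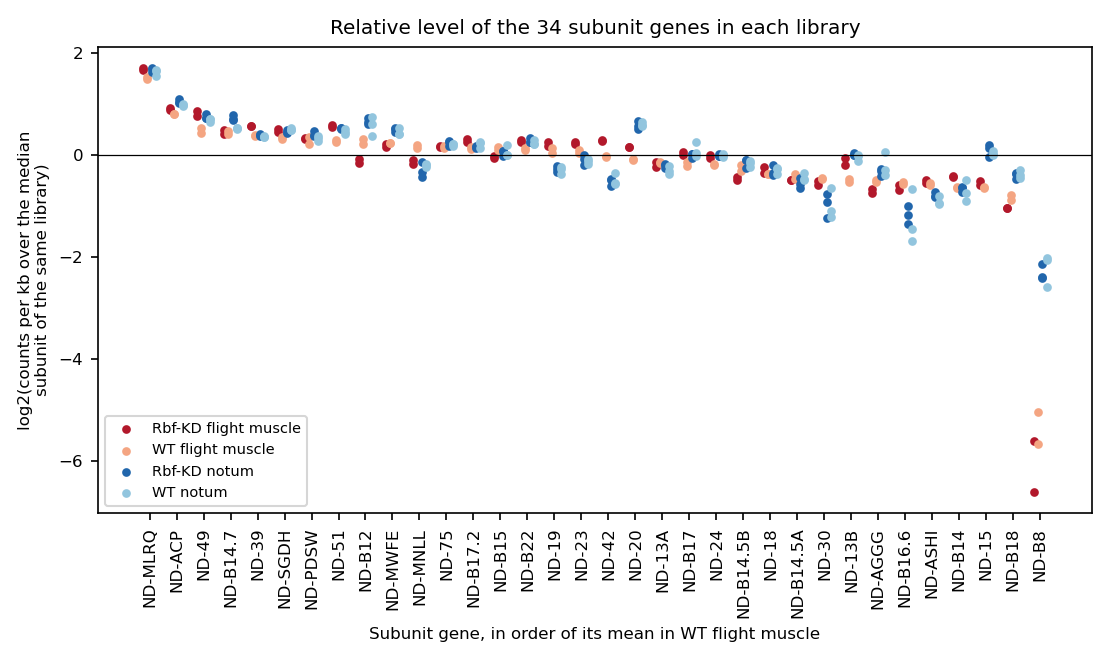
Log2 of counts per kilobase over the median subunit gene of the same library, for each of the 34 subunit genes (in order of the mean in WT flight muscle) and each of the 10 libraries (points, coloured by group). ND-MLRQ is highest in every library, and ND-B8 lies furthest below the others, most of all in flight muscle.

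ND-B8 overlaps Gs1l on the opposite strand by 15.4% of its transcript. Its count was 3.28% and 4.44% of that of Gs1l in flight muscle labelled Rbf-KD, 6.19% and 5.91% in WT flight muscle, between 17% and 21.1% in notum labelled Rbf-KD and between 19.2% and 20.8% in WT notum. The part of Gs1l reads in the ND-B8 values was not tested.

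Other genes around complex I were compared with the members. Both complex I subunit genes found without an ND- symbol, NP15.6 (NDUFB11 in human) and NdufA3, were lower in flight muscle labelled Rbf-KD (log2 fold changes -1.73 and -1.74) and were added after the annotation was seen. Of the membrane-arm core genes of the mitochondrial genome, mt:ND2, mt:ND3, mt:ND4L and mt:ND6 were measured and all 4 were lower (median -1.23), mt:ND3 for instance at 502 ± 40.0 CPM in libraries labelled Rbf-KD and 1454 ± 174 CPM in WT (-1.53, SE 0.15, edgeR adjusted p = 0.00161). With library totals mt:ND2 and mt:ND4L lay above 0 and mt:ND3 alone was called lower. In notum none of the 4 was called (median 0.23), and in WT flight muscle against WT notum all 4 were higher (median 4.25).

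Complex I assembly factors help build the complex without remaining in it. Of 9 found by name 5 were lower in flight muscle labelled Rbf-KD and 0 higher, with a median log2 fold change of -0.50. CIA30 was at 29.1 ± 0.215 CPM in libraries labelled Rbf-KD and 71.4 ± 10.8 CPM in WT (-1.29, SE 0.15, edgeR adjusted p = 0.00238), and sicily at 11.6 ± 0.423 CPM in libraries labelled Rbf-KD and 19.96 ± 2.43 CPM in WT (-0.78). ECSIT (0.16) and 140up (0.37) were not called. With library totals, where 68.2% of all genes were called higher, 6 of the 9 were called higher and 8 lay above 0. All 9 were higher in WT flight muscle than in WT notum (median 2.75), but with library totals 4 were higher and 3 lower.

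Most genes of pathways that feed electrons to or around complex I were lower too. All 12 listed genes of the tricarboxylic acid cycle and pyruvate dehydrogenase were lower in flight muscle labelled Rbf-KD, with a median of -1.70. With library totals all 12 stayed below 0 (10 called). The citrate synthase gene kdn was lowest, at 1065 ± 13.95 CPM in libraries labelled Rbf-KD and 6056 ± 390.0 CPM in WT (log2 fold change -2.51, SE 0.12, edgeR adjusted p = 0.000615). Of 5 complex II genes tested 4 were lower (median -1.53) and the low-count paralog SdhBL was not called (1.47). With library totals 3 of the 5 were lower and SdhBL was called higher (2.55, adjusted p = 0.036). Of 4 genes for other routes to ubiquinone 3 were lower, among them Gpo1 of the glycerol phosphate shuttle (-1.78), and Dhod was not called (-0.13). Etf-QO, lower at -0.87, and Dhod lay above 0 with library totals (0.24 and 0.98). In notum no gene of these lists was called.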

How the data were processed

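The authors deposited raw counts per transcript. Per the submitters' processing notes, tools named were TopHat2 2.1.1, Bowtie2 2.3.2 and featureCounts, with build BDGP5. The sources used here give neither annotation version nor strand setting. Transcripts were matched by identifier to the BDGP6 annotation (27011 of 29173, 92.6%), so only chromosome arms are given. Each gene is represented by its transcript of highest total. Counts were tested in R 4.3.3 with edgeR 4.0.16 (filterByExpr with minimum count 10 and minimum total 15, TMM, robust quasi-likelihood F test, Benjamini-Hochberg adjustment over all genes at 0.05). Genotypes were fitted within a tissue, and tissues and their difference over all 10 libraries, so CPM of a gene differ between fits with their TMM factors. The script was tested on simulated data.

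Alternatives were DESeq2 1.42.0 size factors and test, limma-voom (limma 3.58.1), library totals, no filter, a replicate block and single libraries left out. Values in every library are given for the 7 core genes, the L paralogs and the 3 highest and 3 lowest fold changes of the genotype comparisons and of the WT tissue comparison. Other genes named with values were chosen after their values were seen, apart from the listed related genes. In notum, deviations of same-numbered libraries correlated at 0.698, 0.615 and 0.225. Rbf-KD replicate 3 correlated more with WT replicate 2 (0.532), so the numbers pair the libraries only in part. The replicate block changed no call of a member there. Members and lists were chosen with earlier results of these data known.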

Additional observations from a re-analysis of the deposited data

Results flagged for a closer look

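The genotype effect differed between the tissues, by the interaction term of the edgeR fit of all 10 libraries, for 34 members, each lower in flight muscle. Of all genes 13.1% were called lower and 17.23% higher by the same term. Differences are log2 fold changes of Rbf-KD over WT in flight muscle minus those in notum. Among the core genes they were -1.59 for ND-75, -1.33 for ND-51, -1.41 for ND-24, -1.30 for ND-49, -1.65 for ND-30, -1.30 for ND-20 and -1.43 for ND-23. Among the genes that fell the most they were -2.13 for ND-B8, -2.02 for ND-B12 and -1.77 for ND-MNLL. With library totals the calls of ND-20, ND-23, ND-24, ND-49, ND-51 and ND-B8 were lost, and all stayed below 0.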

How the results depend on the processing

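With library totals, flight muscle labelled Rbf-KD against WT had 2 members higher and a member median of -0.44, WT flight muscle against WT notum had 4 lower and 3.09, the Rbf-KD tissue comparison had 5 lower and 2.72, and the difference of the genotype effect had 1 higher, 15 lower and -0.39. Scaled to the family sum (chosen after the data were seen), these 4 comparisons had 2 higher, 2 lower and -0.0209, then 8 higher, 9 lower and -0.0397, then 5 higher, 13 lower and -0.015, and last 1 higher, 1 lower and -0.0032. The shares of all genes called on both scales are given above with each comparison. DESeq2 size factors and the DESeq2 test gave 6.0028 and 6.0024 for the WT tissue median and -1.63 in both for the difference. The Rbf-KD tissue median was 4.34 without genes of overlapping exons, 4.32 with no filter and 4.38 with only the groups compared. Without both notum replicate 1 libraries, medians were 5.97 (WT tissue), 4.36 with 2 lower (Rbf-KD tissue) and -1.64 (difference). Leaving out 1 library at a time gave medians of -1.70 to -1.40 with 33 to 34 lower (flight muscle), -0.05 to 0.08 (notum), 5.70 to 5.96 with 34 to 35 higher (WT tissue), 4.35 to 4.38 with 33 to 34 higher (Rbf-KD tissue) and -1.61 to -1.34 (difference).

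Low-count paralogs changed sign: ND-49L in notum (-0.13 without Rbf-KD replicate 1 and -0.15 without both replicate 1 libraries), ND-51L1 in flight muscle (-0.0279 without Rbf-KD replicate 2), and ND-51L2 there with library totals (0.18). Between WT tissues ND-51L1 was at 0.0599 with DESeq2 size factors, 0.0601 by DESeq2, 0.12 by limma-voom and between -0.38 and 0.20 with 1 library left out, and ND-51L2 at -1.55 with library totals. On that scale the difference was 0.66 for ND-51L1 and 0.22 for ND-51L2. Over all 34 subunit genes the SD of log2 levels without division by length was 1.48 in flight muscle labelled Rbf-KD, 1.31 in WT flight muscle, 0.986 in notum labelled Rbf-KD and 0.965 in WT notum. Without mitochondrial genes the share was 1.51% in flight muscle labelled Rbf-KD and 2.14% in WT. The replicate block gave 34 lower and a median of -1.54 in flight muscle, where same-numbered libraries correlated at -0.217; crossing the numbers, tried after seeing this, also called 34 lower. Over all genes in notum, 9 higher and 10 lower became 60 and 70 by DESeq2, 38 and 41 with the replicate block, 21 and 19 without both replicate 1 libraries, and as few as 1 and 0 with 1 library left out. In flight muscle 2125 higher and 2223 lower fell to as few as 1111 and 1285 with 1 library left out, and for the difference 1759 lower became 2651 by DESeq2. The cause of these changes was not tested.

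The L paralogs tested in flight muscle and ND-B8 had low counts there, and their standard errors (0.29 to 0.40) exceeded the subunit median of 0.15. The part of depth in these errors was not tested.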

Other observations

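Both notum replicate 1 libraries held the counts of ND-24L in notum, 17 in the library labelled Rbf-KD and 7 in WT, with 0 in the other 4. Of the 4 listed testis genes, topi had 175 counts in the library labelled Rbf-KD and 144 in WT in these 2 libraries, and between 16 and 38 in the other 4. For can both libraries were also above the other 4, at 23 and 12 counts against 4 to 11, in WT only just. The genes aly and bam did not share this in both libraries: aly had 13 and 2 against 0 to 2, and bam had 720 and 806 against 667 to 787. ND-B14.5AL, the gene left out for its low total, had 3 of its 4 counts in notum labelled Rbf-KD replicate 1.

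Leaving out both replicate 1 libraries, chosen after the data were seen, called no member in notum, and 34 members were still lower in flight muscle by the difference of the genotype effect. Of all 12903 genes tested for that difference, 2059 were called lower and 2009 higher.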
